A study of Rattus norvegicus with 30 samples.

Results

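The genes described here are 10 rat genes of de novo lipogenesis and triglyceride synthesis: Srebf1, Mlxipl and Thrsp, which encode regulators, Acly, Acaca, Fasn and Me1, which encode enzymes that make fatty acids, and Gpam, Dgat1 and Dgat2, which encode acyltransferases that build triglyceride. They were taken by name, as every probe set of the array that the platform annotation assigns to a single one of these symbols. All 10 genes were on the array, with 18 probe sets out of 31099. All 18 passed the filter on low signal, in every array, and the 10 genes were among 11545 genes tested.

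Frozen hepatocytes of male Sprague Dawley rats, bought from a supplier, were grown on collagen under Matrigel and dosed on day 3 of culture with WY-14643, a synthetic agonist of the fatty acid receptor PPARα. The wells received vehicle (labelled 1% DMSO), 8 µM or 200 µM WY-14643, with RNA collected at 48 h or at 24 h, which gave 6 groups of 5 wells and 30 arrays. The dosing stocks were concentrates made in 1% DMSO, so how much DMSO the treated wells held cannot be settled from the labels. Whether wells held cells of different animals is not given, so every error and p-value measures the spread between wells, and in such bulk samples fewer expressing cells and less RNA per cell cannot be told apart.

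Liver makes fatty acids from the acetyl-CoA of citrate. ATP citrate lyase (Acly) releases that acetyl-CoA in the cytosol, acetyl-CoA carboxylase (Acaca) turns it into malonyl-CoA, and fatty acid synthase (Fasn) joins the units into palmitate with NADPH, part of which comes from cytosolic malic enzyme (Me1). The fatty acids are then joined to a glycerol backbone: the mitochondrial acyltransferase encoded by Gpam adds the first acyl chain, and the Dgat1 and Dgat2 enzymes add the last. In the fed liver the pathway is driven by insulin through SREBP-1c, a product of Srebf1, and by glucose through ChREBP, the product of Mlxipl, while Thrsp encodes the thyroid hormone responsive Spot 14 protein. PPARα is known above all for the opposite branch, the burning of fatty acids in fasting.

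Promoter windows of 250 bases before to 50 bases after a start site were held in RefSeq (build GRCr8) for 6 of the 10 genes: Acly, Gpam, Me1, Mlxipl, Srebf1 and Thrsp, in 8 windows. Windows of 4 genes are shown because these genes differed in their response: Me1 rose in all 4 comparisons with vehicle, Acly fell in 3 and Mlxipl in all 4, and Thrsp went both ways. Capitals mark the GC box (GGGCGG, or CCGCCC on the other strand) and the NF-Y box (CCAAT, or ATTGG on the other strand). The Me1 window lies at chr8:96540195-96540494, the Acly window at chr10:85963582-85963881, the Mlxipl window at chr12:27213611-27213910 and the Thrsp window at chr1:161138915-161139214, all on the minus strand and printed 5′ to 3′.
Me1: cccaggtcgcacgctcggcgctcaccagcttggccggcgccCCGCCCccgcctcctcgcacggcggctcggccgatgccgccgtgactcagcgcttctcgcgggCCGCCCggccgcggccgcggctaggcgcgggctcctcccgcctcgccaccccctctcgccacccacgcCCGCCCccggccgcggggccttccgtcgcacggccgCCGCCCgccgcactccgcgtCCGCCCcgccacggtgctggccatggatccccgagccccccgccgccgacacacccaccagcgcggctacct
Acly: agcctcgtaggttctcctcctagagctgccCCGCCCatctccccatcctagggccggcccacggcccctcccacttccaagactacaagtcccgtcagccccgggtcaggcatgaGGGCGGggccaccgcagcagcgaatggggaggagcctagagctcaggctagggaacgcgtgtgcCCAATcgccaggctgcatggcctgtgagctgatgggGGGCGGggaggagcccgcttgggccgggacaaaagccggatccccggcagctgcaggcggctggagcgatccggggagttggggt
Mlxipl: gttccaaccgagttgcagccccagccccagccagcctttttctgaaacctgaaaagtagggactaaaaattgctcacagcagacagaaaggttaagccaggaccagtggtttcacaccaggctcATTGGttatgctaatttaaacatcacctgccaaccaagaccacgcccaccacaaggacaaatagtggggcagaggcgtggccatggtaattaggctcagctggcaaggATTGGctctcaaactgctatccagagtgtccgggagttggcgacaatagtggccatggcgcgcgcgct
Thrsp: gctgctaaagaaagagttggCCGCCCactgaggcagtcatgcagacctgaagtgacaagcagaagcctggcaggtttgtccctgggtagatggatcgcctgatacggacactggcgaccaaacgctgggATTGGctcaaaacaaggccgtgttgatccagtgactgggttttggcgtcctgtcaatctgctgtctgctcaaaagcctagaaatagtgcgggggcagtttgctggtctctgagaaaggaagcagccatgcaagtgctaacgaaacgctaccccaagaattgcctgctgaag
The Me1 window held 5 GC boxes and no NF-Y box, and its GC content was 81.7%. The Acly window held 3 GC boxes and 1 NF-Y box, the Mlxipl window 2 NF-Y boxes and no GC box, and the Thrsp window 1 of each. Across all 33469 windows of the table, 33.1% held a GC box and 37.5% an NF-Y box. Letters of 3 other motifs, searched on both strands, were in none of the 8 windows: the sterol element TCACNCCAC (in 1.12% of all windows), the E-box CACGTG (6.42%) and the PPAR core element AGGTCA (16.2%). A match is a description of these letters and nothing more, and no motif overlapped another in the windows shown.

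Signals are linear MAS5 intensities, which order the groups for 1 probe set but not different genes. A fold change is the difference of mean log2(signal + 16), and a gene is said to rise or fall where its adjusted p was below 0.05 in limma (two-sided, Benjamini-Hochberg over the 11545 genes). At 8 µM and 48 h, 5 of the 10 genes rose and 2 fell against vehicle, where 35.6% of all genes tested changed (16.7% rose and 18.9% fell). At 200 µM and 48 h, 5 rose and 3 fell, where 33.8% changed (16.8% rose and 17.1% fell). At 8 µM and 24 h, 3 rose and 3 fell, where 24.9% changed (11.1% rose and 13.8% fell). At 200 µM and 24 h, 3 rose and 5 fell, where 24.7% changed (11.6% rose and 13.1% fell). Both doses at a time share the same 5 vehicle wells. Me1, Dgat1 and Dgat2 rose in all 4 comparisons, Acaca and Mlxipl fell in all 4, and Srebf1 passed the test in none (1 of its 4 comparisons had an unadjusted p under 0.05, that of 200 µM at 48 h). The median size of the log2 change over the 10 genes lay between 0.50 and 0.63 in the 4 comparisons, and over all genes tested between 0.18 and 0.25.

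**Figure D1:**
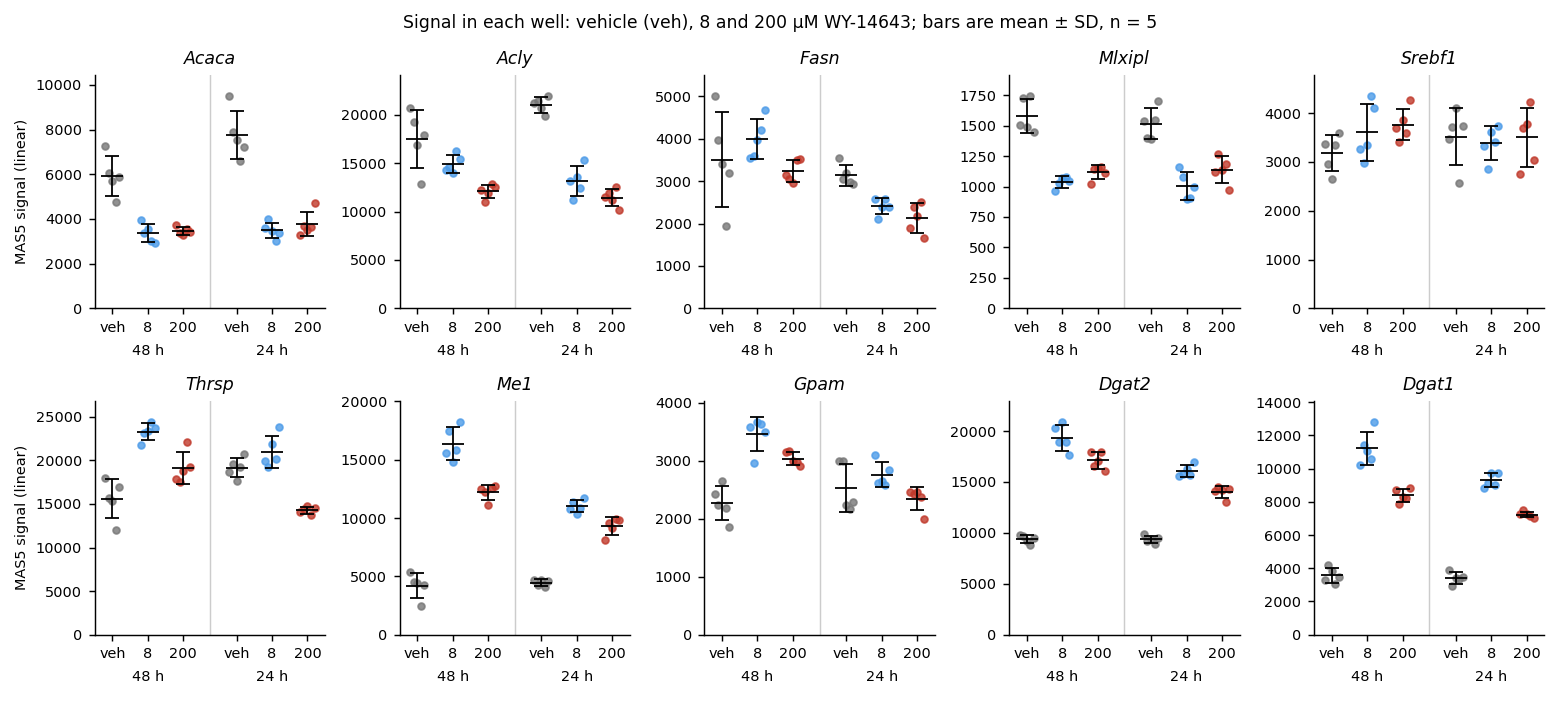
MAS5 signal (linear, from 0) of the 10 genes in each of the 30 wells, with 48 h left of 24 h and vehicle, 8 µM and 200 µM in that order; bars are mean ± SD over 5 wells. All treated wells of Me1, Dgat1 and Dgat2 lie above the vehicle wells of their time, all treated wells of Acaca and Mlxipl lie below them, and the wells of Srebf1 overlap.

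Among the regulators, Srebf1 did not pass the test at either dose or time. Its signal ran from 2653 to 3593 in vehicle wells, from 2988 to 4354 at 8 µM and from 3407 to 4258 at 200 µM at 48 h. At 24 h it ran from 2567 to 4104 in vehicle wells, from 2850 to 3729 at 8 µM and from 2753 to 4235 at 200 µM. The groups overlapped throughout. The log2 fold change was 0.18 ± 0.12 (SE, adjusted p = 0.27) at 8 µM and 0.25 ± 0.12 (adjusted p = 0.11) at 200 µM at 48 h, and -0.043 ± 0.12 (adjusted p = 0.86) at 8 µM and -0.0063 ± 0.12 (adjusted p = 0.98) at 200 µM at 24 h. Centring each array on its median instead brought the 48 h value at 200 µM to 0.37, with an adjusted p of 0.038. The other Srebf1 probe set also passed in none of the 4 comparisons and lay on the other side of zero at 48 h, with -0.27 at 8 µM (adjusted p = 0.12) and -0.18 at 200 µM (adjusted p = 0.33). At 24 h that probe set gave 0.16 at 8 µM and -0.12 at 200 µM. The probe sets do not separate the transcripts of Srebf1, and the amount or processing of its protein was not measured.

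Mlxipl, the ChREBP gene, fell in every comparison with vehicle. At 48 h its signal was 1503, 1724, 1488, 1745 and 1449 in vehicle wells, 960, 1029, 1070, 1079 and 1042 at 8 µM and 1023, 1143, 1149, 1163 and 1112 at 200 µM. The 24 h signal was 1535, 1401, 1392, 1544 and 1703 in vehicle wells, 1164, 1080, 896, 905 and 994 at 8 µM and 1121, 1271, 1139, 1184 and 968 at 200 µM. Every treated well was below every vehicle well of its time, and the doses overlapped. Mlxipl changed by -0.60 ± 0.090 on the log2 scale (SE, adjusted p = 1.7e-06) at 8 µM and -0.49 ± 0.090 (adjusted p = 4.4e-05) at 200 µM at 48 h. The 24 h value was -0.58 ± 0.090 (adjusted p = 3.8e-06) at 8 µM and -0.41 ± 0.090 (adjusted p = 0.00059) at 200 µM. Of the 6 group means the vehicle means, 1582 ± 141 at 48 h and 1515 ± 127 at 24 h (SD, n = 5), stood highest and the treated means lay between 1008 and 1137.

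Thrsp moved in both directions. At 48 h its signal was 17997, 15727, 15306, 12033 and 16940 in vehicle wells, 21810, 23162, 23399, 24398 and 23774 at 8 µM and 17914, 17570, 18810, 22069 and 19284 at 200 µM. In the 24 h wells the signal was 18720, 19606, 17650, 19225 and 20728 in vehicle wells, 19981, 19239, 21844, 20107 and 23814 at 8 µM and 14106, 14424, 14723, 13718 and 14521 at 200 µM. At 48 h all 8 µM wells were above all vehicle wells, while at 24 h all 200 µM wells were below all others. The log2 fold change at 48 h was 0.59 ± 0.077 (SE, adjusted p = 1.3e-07) at 8 µM and 0.30 ± 0.077 (adjusted p = 0.0022) at 200 µM. The 24 h change was 0.13 ± 0.077 at 8 µM, which did not pass (adjusted p = 0.26), and -0.42 ± 0.077 (adjusted p = 5.7e-05) at 200 µM. Both other probe sets of Thrsp gave the same calls in all 4 comparisons, with log2 fold changes of -0.55 and -0.61 at 200 µM and 24 h. At 48 h they rose by 0.76 and 0.84 at 8 µM and by 0.41 and 0.44 at 200 µM.

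Of the fatty acid synthesis genes, Acaca, whose enzyme makes the committed step, fell most. At 48 h its signal was 7275, 6052, 5692, 4774 and 5879 in vehicle wells, 3972, 3377, 3545, 3022 and 2929 at 8 µM and 3716, 3385, 3280, 3541 and 3430 at 200 µM. Its 24 h signal was 9513, 7911, 7547, 6587 and 7243 in vehicle wells, 3586, 3977, 3459, 3029 and 3374 at 8 µM and 3299, 3699, 3506, 3641 and 4709 at 200 µM. No treated well reached a vehicle well of its time. The change in log2 signal was -0.81 ± 0.10 (SE, adjusted p = 8.2e-08) at 8 µM and -0.76 ± 0.10 (adjusted p = 3.2e-07) at 200 µM at 48 h. At 24 h the values were -1.15 ± 0.10 (adjusted p = 6e-11) at 8 µM and -1.04 ± 0.10 (adjusted p = 7.4e-10) at 200 µM. These falls rest on the brighter of 2 probe sets: the other had signals of only 315 to 700 and passed the test in none of the 4 comparisons, with values between -0.29 and 0.043.

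Acly fell in 3 of the 4 comparisons. At 48 h its signal was 20706, 19234, 16895, 12822 and 17914 in vehicle wells, 14296, 14565, 13981, 16310 and 15451 at 8 µM and 12179, 11019, 11879, 12865 and 12499 at 200 µM. The 24 h signal was 21210, 21389, 20688, 19853 and 21962 in vehicle wells, 13192, 11235, 13582, 12444 and 15340 at 8 µM and 11476, 11898, 11173, 12504 and 10199 at 200 µM. At 24 h the treated and vehicle wells stood apart, while at 48 h vehicle well 4, with 12822, lay within the range of the 200 µM wells. The log2 fold change at 48 h was -0.52 ± 0.087 (SE, adjusted p = 1.3e-05) at 200 µM and -0.21 ± 0.087 at 8 µM, which did not pass (adjusted p = 0.053). At 24 h the change was -0.68 ± 0.087 (adjusted p = 1.4e-07) at 8 µM and -0.88 ± 0.087 (adjusted p = 8.5e-10) at 200 µM. Without 48 h vehicle well 4 the 8 µM value at 48 h was -0.32 with an adjusted p of 0.00036, and it also passed without 48 h 8 µM well 4 (-0.25, adjusted p = 0.037) and, at an unchanged value, without 24 h 8 µM well 2 or 5 (adjusted p = 0.046 and 0.045).

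Fasn passed the test in 1 comparison. At 48 h its signal was 5011, 3980, 3392, 1952 and 3188 in vehicle wells, 3551, 3597, 3959, 4203 and 4676 at 8 µM and 3155, 3046, 2957, 3500 and 3532 at 200 µM. In the 24 h wells the signal was 3546, 3059, 3180, 2974 and 2928 in vehicle wells, 2575, 2104, 2398, 2580 and 2389 at 8 µM and 1906, 2389, 2181, 2515 and 1657 at 200 µM. The 48 h vehicle wells spread widest, from 1952 to 5011, and overlapped both doses, while at 24 h every treated well was below every vehicle well. The log2 fold change at 24 h was -0.57 ± 0.14 (SE, adjusted p = 0.0029) at 200 µM and -0.38 ± 0.14 (adjusted p = 0.051) at 8 µM, and at 48 h it was -0.052 ± 0.14 (adjusted p = 0.82) at 200 µM and 0.25 ± 0.14 (adjusted p = 0.19) at 8 µM. The 8 µM value at 24 h passed when 48 h vehicle well 4 (adjusted p = 0.0057), 1 (0.025) or 2 (0.05 after rounding) or 24 h 200 µM well 5 (0.044) was left out, which changes only the shared estimate of the spread. The 8 µM value at 48 h passed without 48 h vehicle well 1 (0.39, adjusted p = 0.022) and was 0.053 without 48 h vehicle well 4 (adjusted p = 0.77). The 200 µM value at 48 h was -0.25 without that well 4 (adjusted p = 0.09) and 0.092 without well 1 (adjusted p = 0.64). The other probe set of Fasn fell at 24 h at both doses, by 0.46 at 200 µM (adjusted p = 0.021) and by 0.53 at 8 µM (adjusted p = 0.0076) on the log2 scale.

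Me1, the malic enzyme gene, rose in every comparison, against the direction of Acaca and Acly. At 48 h its signal was 5358, 4519, 4427, 2488 and 4225 in vehicle wells, 15567, 17427, 14773, 15831 and 18228 at 8 µM and 12492, 12256, 11118, 12555 and 12728 at 200 µM. Its 24 h signal was 4648, 4297, 4690, 4071 and 4627 in vehicle wells, 10799, 11375, 10323, 10896 and 11732 at 8 µM and 8116, 9617, 9119, 9915 and 9795 at 200 µM. All treated wells were above all vehicle wells, and at each time all 8 µM wells were above all 200 µM wells. On the log2 scale Me1 rose by 2.00 ± 0.11 (SE, adjusted p = 2.6e-16, 3.99-fold) at 8 µM and 1.58 ± 0.11 (adjusted p = 1.6e-13, 2.99-fold) at 200 µM at 48 h. The 24 h value was 1.30 ± 0.11 (adjusted p = 2.2e-11) at 8 µM and 1.06 ± 0.11 (adjusted p = 3.1e-09) at 200 µM. The other Me1 probe set rose less, by 1.27 at 8 µM and 0.93 at 200 µM at 48 h, and by 0.60 at 8 µM and 0.62 at 200 µM at 24 h. Its 24 h wells did not separate by dose, with 7333 to 9124 at 8 µM and 7408 to 9201 at 200 µM.

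**Figure D2:**
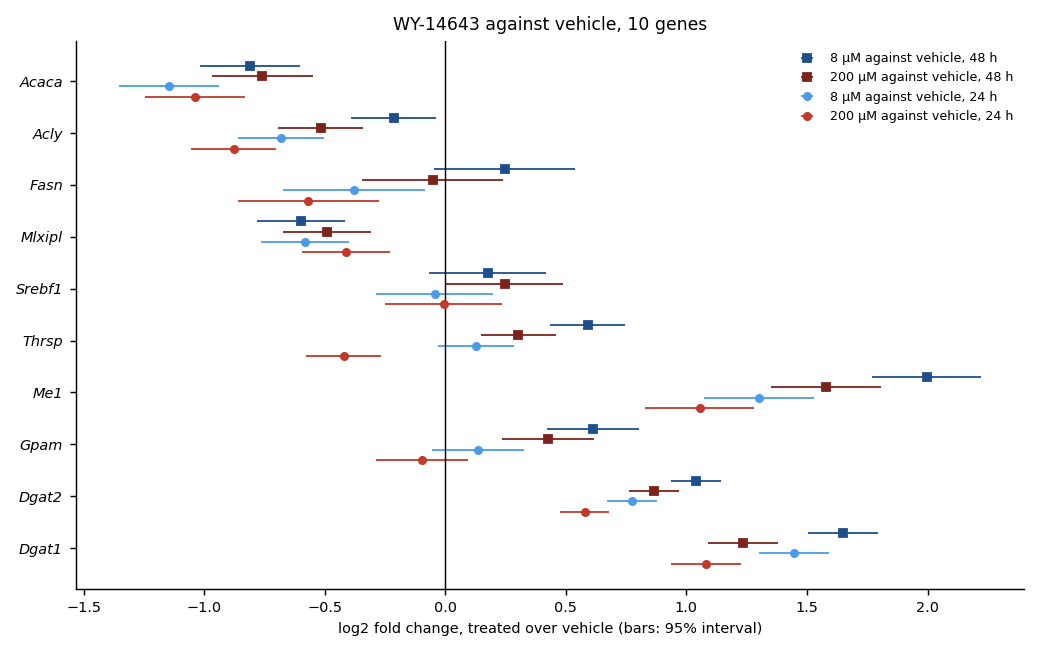
Log2 fold change over vehicle (horizontal axis, zero at the vertical line) for the 10 genes at 8 µM and 200 µM, at 48 h (squares) and 24 h (circles); bars are 95% intervals. Acaca, Mlxipl and Acly lie left of zero, Me1, Dgat1 and Dgat2 lie right of it, and Thrsp has values on both sides.

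Of the triglyceride genes, Dgat1 and Dgat2 rose at both times and Gpam at 48 h. Gpam did not pass the test at 24 h, where its signal ran from 2166 to 2993 in vehicle wells, from 2581 to 3104 at 8 µM and from 2002 to 2469 at 200 µM. At 48 h it was 2435, 2241, 2651, 2187 and 1858 in vehicle wells, 3584, 2961, 3669, 3636 and 3494 at 8 µM and 3148, 3165, 3001, 2979 and 2907 at 200 µM. At 48 h every treated well was above every vehicle well. Its log2 fold change at 48 h was 0.61 ± 0.094 (SE, adjusted p = 2.8e-06) at 8 µM and 0.43 ± 0.094 (adjusted p = 0.00051) at 200 µM, while the 24 h value was 0.14 ± 0.094 (adjusted p = 0.35) at 8 µM and -0.098 ± 0.094 (adjusted p = 0.53) at 200 µM. The other Gpam probe set rose at 8 µM and 48 h (0.63, adjusted p = 3.9e-05), did not pass at 200 µM and 48 h (0.24, adjusted p = 0.12) and fell at 200 µM and 24 h (-0.32, adjusted p = 0.044).

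Dgat1, which encodes the acyltransferase best known for re-esterifying fatty acids taken up from outside, had at 48 h 3319, 4187, 3816, 3078 and 3447 in vehicle wells, 10206, 11405, 11058, 10601 and 12801 at 8 µM and 8736, 7870, 8273, 8214 and 8826 at 200 µM. Its 24 h signal was 3904, 2959, 3392, 3327 and 3499 in vehicle wells, 8851, 9123, 9759, 9016 and 9743 at 8 µM and 7242, 7486, 7253, 7120 and 7041 at 200 µM. The doses and the vehicle formed 3 separate bands at each time, with 8 µM on top. On the log2 scale Dgat1 rose by 1.65 ± 0.071 (SE, adjusted p = 3.1e-19, 3.14-fold) at 8 µM and 1.24 ± 0.071 (adjusted p = 9.4e-16) at 200 µM at 48 h. The 24 h value was 1.44 ± 0.071 (adjusted p = 1.7e-17) at 8 µM and 1.08 ± 0.071 (adjusted p = 4.4e-14) at 200 µM. Dgat1 has a single probe set here, so no other probe set could be set beside it.

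Dgat2, whose enzyme is linked mainly to newly made fatty acids, had at 48 h 9774, 9655, 9238, 8765 and 9535 in vehicle wells, 20289, 18936, 20883, 18887 and 17687 at 8 µM and 17940, 16556, 17094, 17953 and 16067 at 200 µM. Its 24 h signal was 9855, 9250, 9389, 8921 and 9544 in vehicle wells, 15548, 15829, 16316, 15727 and 16999 at 8 µM and 14088, 14486, 14252, 12998 and 14338 at 200 µM. Every treated well was above every vehicle well, whose means were 9393 ± 404 at 48 h and 9392 ± 346 at 24 h (SD, n = 5). The log2 fold change was 1.04 ± 0.050 (SE, adjusted p = 6.7e-18) at 8 µM and 0.86 ± 0.050 (adjusted p = 1.1e-15) at 200 µM at 48 h, and 0.78 ± 0.050 (adjusted p = 2.3e-14) at 8 µM and 0.58 ± 0.050 (adjusted p = 4.2e-11) at 200 µM at 24 h. The other Dgat2 probe set rose in the same 4 comparisons, by 0.71 at 8 µM and 0.66 at 200 µM at 48 h, and by 0.50 at 8 µM and 0.47 at 200 µM at 24 h.

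**Figure D3:**
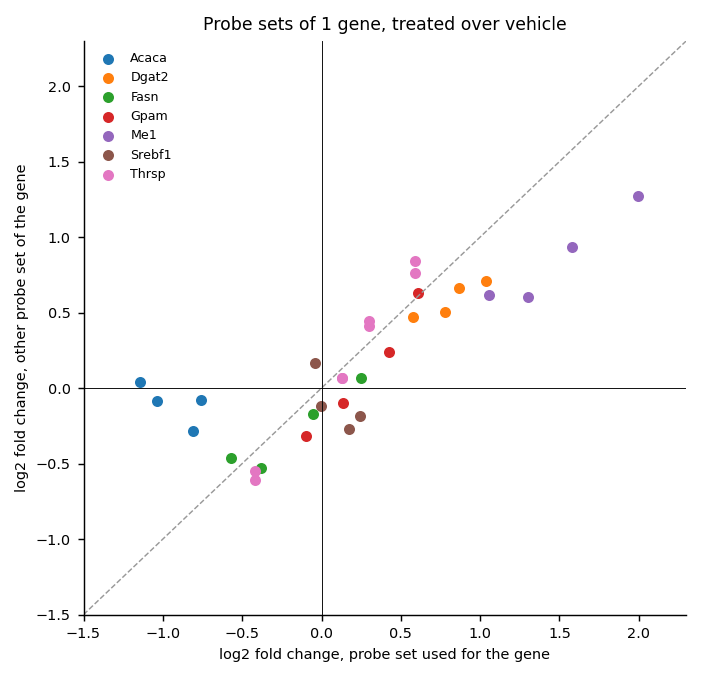
Log2 fold change over vehicle of each further probe set (vertical axis) against that of the probe set used for the gene (horizontal axis), 8 probe sets of 7 genes in 4 comparisons each; the dashed line marks equal values. Each of the 32 points pairs a further probe set with the used one in 1 comparison, so calls of Thrsp count once per further probe set. In 21 pairs the probe set used passed: the further probe set gave the same call in 16, no call in 5 and the opposite in 0. In 2 other pairs only the further probe set passed, Fasn at 8 µM and 24 h and Gpam at 200 µM and 24 h. The Acaca points lie near 0 on the vertical axis.

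Between the doses, 5 of the 10 genes were lower at 200 µM than at 8 µM at 48 h and 0 were higher in limma, where 4.79% of all genes tested differed (2.26% higher and 2.53% lower). At 24 h, 3 were lower and 0 higher, where 3.02% differed (1.39% higher and 1.63% lower). At an unadjusted p under 0.05 the number higher was still 0 at each time. Dgat1 differed by -0.42 ± 0.071 (SE, adjusted p = 0.00021) at 48 h and by -0.36 ± 0.071 (adjusted p = 0.0018) at 24 h, and leaving out any 1 of the 30 arrays did not end either call. For Thrsp the difference was -0.29 ± 0.077 (adjusted p = 0.021) at 48 h and -0.55 ± 0.077 (adjusted p = 1.7e-05) at 24 h. The other differences that passed were Me1 -0.42 ± 0.11 (adjusted p = 0.022) and Acly -0.30 ± 0.087 (adjusted p = 0.036) at 48 h, and Dgat2 -0.17 ± 0.050 (adjusted p = 0.037) at 48 h and -0.20 ± 0.050 (adjusted p = 0.021) at 24 h. The other Dgat2 probe set differed between doses by -0.048 at 48 h and -0.029 at 24 h, and passed at neither time. The other Me1 probe set fell by 0.34 at 48 h (adjusted p = 0.0032) but differed by only 0.013 at 24 h (adjusted p = 0.99). Acaca, Mlxipl and Srebf1 passed at neither time, with differences between 0.037 and 0.17, nor did Fasn and Gpam, with differences between -0.30 and -0.19.

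With each array centred on its median, of these dose calls only that of Thrsp at 24 h was kept (adjusted p = 0.03), and Dgat1 then had adjusted p-values of 0.056 at 48 h and 0.2 at 24 h. With only the groups compared in the fit, Dgat1 alone passed at 48 h. Several calls also hung on single arrays. That of Thrsp at 48 h was lost without 48 h 200 µM well 1, 2 or 3 or 8 µM well 4 (adjusted p 0.051 to 0.07), and that of Me1 without 200 µM well 3 or 8 µM well 2 or 5 (0.063 to 0.071). That of Acly was lost without 200 µM well 1, 2, 3 or 5 or 8 µM well 2, 4 or 5 (0.051 to 0.10). That of Dgat2 at 48 h was lost without 200 µM well 2, 3 or 5 or 8 µM well 1, 2, 3 or 4 (0.052 to 0.13), and at 24 h without 200 µM well 4 or 8 µM well 3 or 5 (0.056 to 0.088). Me1 at 24 h, with a difference of -0.25 (adjusted p = 0.33), passed without 48 h vehicle well 4 (adjusted p = 0.017). Leaving out that well kept the other dose calls, with adjusted p from 3.2e-05 (Me1) to 0.0090 (Dgat2) at 48 h. At 24 h the adjusted p then ran from 1.5e-07 (Thrsp) to 0.0042 (Dgat2). The differences were unchanged, as the well enters only the shared estimate of the spread.

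**Figure D4:**
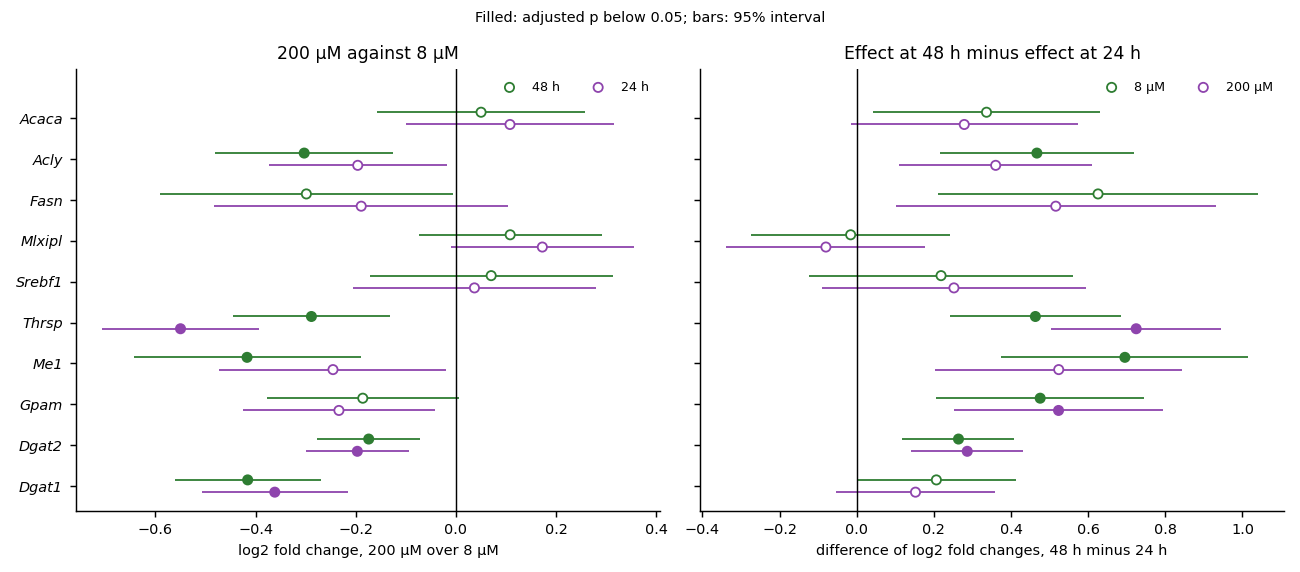
Left, log2 fold change of 200 µM over 8 µM for the 10 genes at 48 h and 24 h; right, the log2 effect at 48 h minus the effect at 24 h for each dose. Filled points passed the test and bars are 95% intervals: the filled points all lie left of zero in the dose panel and right of zero in the time panel.

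Between the times, the 8 µM effect was higher at 48 h than at 24 h for 5 genes and lower for 0 in limma, where 2.9% of all genes tested differed (1.67% higher and 1.23% lower), and the 200 µM effect was higher for 3 and lower for 0, where 2.41% differed (1.3% higher and 1.11% lower). At an unadjusted p under 0.05 the number lower was still 0 for each dose. For Thrsp the effect was higher at 48 h by 0.72 ± 0.11 (SE, adjusted p = 6e-05) at 200 µM and by 0.46 ± 0.11 (adjusted p = 0.011) at 8 µM. For Me1 it was higher by 0.70 ± 0.16 (adjusted p = 0.0082) at 8 µM and by 0.52 ± 0.16 at 200 µM, which did not pass (adjusted p = 0.077). None of these calls of Thrsp and Me1 was lost on leaving out any 1 array. For Gpam the effect was higher by 0.52 ± 0.13 (adjusted p = 0.026) at 200 µM and by 0.48 ± 0.13 (adjusted p = 0.043) at 8 µM, and for Dgat2 by 0.29 ± 0.071 (adjusted p = 0.022) at 200 µM and 0.26 ± 0.071 (adjusted p = 0.034) at 8 µM. The other Dgat2 probe set passed at neither dose, with 0.19 at 200 µM (adjusted p = 0.57) and 0.21 at 8 µM (adjusted p = 0.51). The other Gpam probe set passed at 8 µM (0.73, adjusted p = 0.0085) but not at 200 µM (0.56, adjusted p = 0.07). With single probe sets tested, the Gpam probe set used had an adjusted p of 0.059 at 8 µM. The negative 8 µM effect on Acly was nearer zero at 48 h by 0.47 ± 0.12 (adjusted p = 0.029). The Mlxipl effect differed by -0.016 ± 0.13 at 8 µM and -0.080 ± 0.13 at 200 µM between the times, with 95% intervals that span zero.

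With each array centred on its median, of these time calls only that of Thrsp at 200 µM was kept (adjusted p = 0.027). With only the groups compared in the fit, Thrsp passed at both doses and Me1 at 8 µM. Single arrays decided part of the time calls too. The call for Acly was lost without 24 h 8 µM well 2 or 4, 24 h vehicle well 5 or 48 h 8 µM well 4 (adjusted p 0.054 to 0.074). For Dgat2 the 200 µM call was lost without 48 h 200 µM well 1 or 4 (0.051 to 0.052). Its 8 µM call was lost without 48 h 8 µM well 1 or 3, 48 h vehicle well 3, 24 h 8 µM well 1, 2 or 4 or 24 h vehicle well 1, 3 or 5 (0.051 to 0.076). For Gpam the 200 µM call was lost without 48 h 200 µM well 1, 48 h vehicle well 5, 24 h 200 µM well 5 or 24 h vehicle well 1 or 2 (0.051 to 0.059). Its 8 µM call was lost without any of 12 wells, 48 h 8 µM well 1, 3, 4 or 5, 48 h vehicle well 2 or 5, 24 h 8 µM well 2, 3, 4 or 5 and 24 h vehicle well 1 or 2 (0.051 to 0.094). Fasn gained a call without 48 h vehicle well 1 at 8 µM (0.77, adjusted p = 0.014) and at 200 µM (0.66, adjusted p = 0.047), and Me1 gained the 200 µM call without 48 h vehicle well 1 (0.62, adjusted p = 0.017) or 4 (0.35, adjusted p = 0.028), the second at a lower value.

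In vehicle wells alone, 3 genes were lower at 48 h than at 24 h and 0 were higher in limma, also at an unadjusted p under 0.05, where 9.87% of all genes tested differed (4.46% higher and 5.4% lower). Acaca averaged 5934 ± 897 at 48 h and 7760 ± 1094 at 24 h (SD, n = 5), a log2 difference of -0.39 ± 0.10 (SE, adjusted p = 0.012). Thrsp averaged 15601 ± 2256 at 48 h and 19186 ± 1132 at 24 h, a difference of -0.31 ± 0.077 (adjusted p = 0.0075). Acly averaged 17514 ± 2987 at 48 h and 21020 ± 796 at 24 h, a difference of -0.28 ± 0.087 (adjusted p = 0.036). The ranges of the vehicle wells at 48 h and 24 h overlapped for all 10 genes. With each array centred on its median the Thrsp and Acly calls were lost (adjusted p = 0.056 and 0.097), and with only these 10 arrays in the fit all 3 were lost (adjusted p 0.094 to 0.24). The Acaca call was lost without 24 h vehicle well 1 (adjusted p = 0.053). The Acly call was lost without 48 h vehicle well 3 or 4 or 24 h vehicle well 1, 2, 3 or 5 (adjusted p 0.06 to 0.12), and without 48 h vehicle well 4 its difference was -0.17. The same vehicle wells enter the time differences of both doses.

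Ordered by group mean, the 6 groups of Dgat1 separated most cleanly: 8 µM at 48 h stood highest, then 8 µM at 24 h, 200 µM at 48 h and 200 µM at 24 h, each without overlap with the next, and then both vehicle groups, which overlapped. Me1 had 8 µM at 48 h on top, followed by 200 µM at 48 h and 8 µM at 24 h, which overlapped, then 200 µM at 24 h and both vehicle groups. For Acaca and Mlxipl both vehicle groups stood on top and the 4 treated groups overlapped each with the next. For Thrsp, Gpam, Srebf1 and Acly each group overlapped the next in order.

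Likeness between genes was measured as the root mean square difference of the 6 centred group means, over 6 groups. Acaca was most like Lpin1, which encodes a phosphatidate phosphatase of triglyceride synthesis, at 0.0607, where the median gene differed from Acaca by 0.462. Lpin1 averaged 8806 ± 722 at 200 µM and 9520 ± 596 at 8 µM at 48 h, against 16093 ± 2738 in vehicle wells (SD, n = 5). Me1 was most like Serpinb9b (0.0613), Zfp503 and Decr2, Dgat1 most like Serpina7 (0.0851), Rxrg and Tor3a, and Dgat2 most like Gramd2b (0.0349), Wbp1 and Prr15. Thrsp was most like Eva1a (0.0685), Slc25a10, which encodes a mitochondrial dicarboxylate carrier, and Trim24. Among the 10 genes the closest pairs were Thrsp with Gpam (0.123) and Me1 with Dgat1 (0.132), and the farthest was Acaca with Me1 (1.18). A gene with a small range, such as Srebf1 with a range of 0.25 on the log2 scale, is close to many genes by this measure.

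Around these genes stand others of the same pathways, listed by function. For acetyl-CoA, NADPH and further fatty acid synthesis steps, 20 genes were listed, of which 18 were on the array and 17 passed the filter and were tested. Of these, 10 rose and 2 fell at 200 µM and 12 rose and 1 fell at 8 µM at 48 h. At 24 h, 6 rose and 2 fell at 200 µM and 7 rose and 2 fell at 8 µM. These are 70.6% of the list at 200 µM and 76.5% at 8 µM at 48 h, and 47.1% at 200 µM and 52.9% at 8 µM at 24 h, beside 33.8%, 35.6%, 24.7% and 24.9% of all genes tested in the same 4 comparisons. The list medians were 0.39 at 200 µM and 0.56 at 8 µM at 48 h, and 0.11 at 200 µM and 0.18 at 8 µM at 24 h, on the log2 scale, where the medians of all genes lay between -0.063 and -0.017. Elovl5, Elovl6, Fads1, Fads2, Idh1 and Mlycd rose in all 4 comparisons with vehicle and Mid1ip1, which encodes a partner of acetyl-CoA carboxylase, fell in all 4. Fads1, a desaturase gene, reached the largest rise of the list, 2.51 ± 0.13 (SE) at 8 µM and 48 h, and Elovl6, whose enzyme lengthens palmitate, rose by 1.64 to 1.73. Mlycd, whose enzyme breaks malonyl-CoA down, rose by 1.32 to 1.70, while Mid1ip1 fell by 0.37 to 0.61. Acss2, which encodes an acetyl-CoA synthetase, fell by 0.56 at 200 µM and 48 h and by 0.76 at 200 µM and 0.50 at 8 µM at 24 h, and stood at -0.044 at 8 µM and 48 h, which did not pass (adjusted p = 0.68).

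For triglyceride assembly and export, 23 genes were listed, of which 19 were on the array and 16 were tested. Of these, 6 rose and 2 fell at 200 µM and 6 rose and 3 fell at 8 µM at 48 h. The list medians were 0.084 at 200 µM and 0.14 at 8 µM. At 24 h, 4 rose and 5 fell at 200 µM and 4 rose and 4 fell at 8 µM, with medians of -0.028 at 200 µM and 0.048 at 8 µM. The share of the list that passed was 50.0% at 200 µM and 56.2% at 8 µM at 48 h, and 56.2% at 200 µM and 50.0% at 8 µM at 24 h. Of all genes tested, 33.8% passed at 200 µM and 35.6% at 8 µM at 48 h, and 24.7% and 24.9% at 24 h. The medians of all genes were -0.050 at 200 µM and -0.063 at 8 µM at 48 h, and -0.017 and -0.029 at 24 h. Agpat2, Fitm2, Gpd1 and Mttp rose in all 4 comparisons. Gpd1, which encodes the enzyme that makes glycerol 3-phosphate, rose by 1.42 to 1.74, and Mttp, which encodes the protein that loads lipid onto apolipoprotein B, rose by 0.67 to 1.61. Lpin1 fell in all 4, by 0.85 and 0.74 at 200 µM and 8 µM at 48 h and by 0.97 at 200 µM and 1.14 at 8 µM at 24 h. Pnpla3, a lipid droplet protein gene known as a SREBP-1c target, fell by 1.14 at 200 µM and 0.90 at 8 µM at 24 h and stood at -0.032 at 200 µM and 0.032 at 8 µM at 48 h, where neither dose passed.

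All 27 listed regulators were on the array and 25 passed the filter and were tested. Of these, 3 rose and 7 fell at 200 µM and 3 rose and 8 fell at 8 µM at 48 h. The list medians were -0.059 at 200 µM and -0.19 at 8 µM. At 24 h, 1 rose and 4 fell at 200 µM and 2 rose and 7 fell at 8 µM, with medians of -0.12 at 200 µM and -0.087 at 8 µM. The medians of all genes were -0.050 at 200 µM and -0.063 at 8 µM at 48 h, and -0.017 at 200 µM and -0.029 at 8 µM at 24 h. At 48 h, 40% of the regulators passed at 200 µM, beside 33.8% of all genes, and 44% at 8 µM, beside 35.6%. At 24 h, 20% passed at 200 µM, beside 24.7% of all genes, and 36% at 8 µM, beside 24.9%. Insr, the insulin receptor gene, fell by 0.37 to 0.47 and Prkab1, a subunit gene of AMP-activated kinase, by 0.43 to 0.64 in all 4 comparisons. At 48 h Irs2 fell by 0.69 at 200 µM and 0.51 at 8 µM, Srebf2 fell by 0.60 at 200 µM and 0.43 at 8 µM, and Insig1, which encodes a protein that holds SREBPs in the endoplasmic reticulum, rose by 0.45 at 200 µM and 0.65 at 8 µM. All 7 measured genes listed as glucose responsive targets of ChREBP passed in all 4 comparisons, 3 upward and 4 downward. Of all genes tested, 33.8% passed at 200 µM and 35.6% at 8 µM at 48 h, and 24.7% and 24.9% at 24 h, each in the single comparison. Pklr, the liver pyruvate kinase gene, fell by 0.99 to 1.35, and Tkfc, Slc2a2 and Khk fell too, by 0.25 to 1.18. Txnip rose by 1.64 to 2.20, Fgf21 by 0.76 to 1.28 and Gckr by 0.43 to 0.74. These lists hold genes with other known inputs, Fgf21 and Txnip among them, so their counts do not read out 1 regulator.

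**Figure D5:**
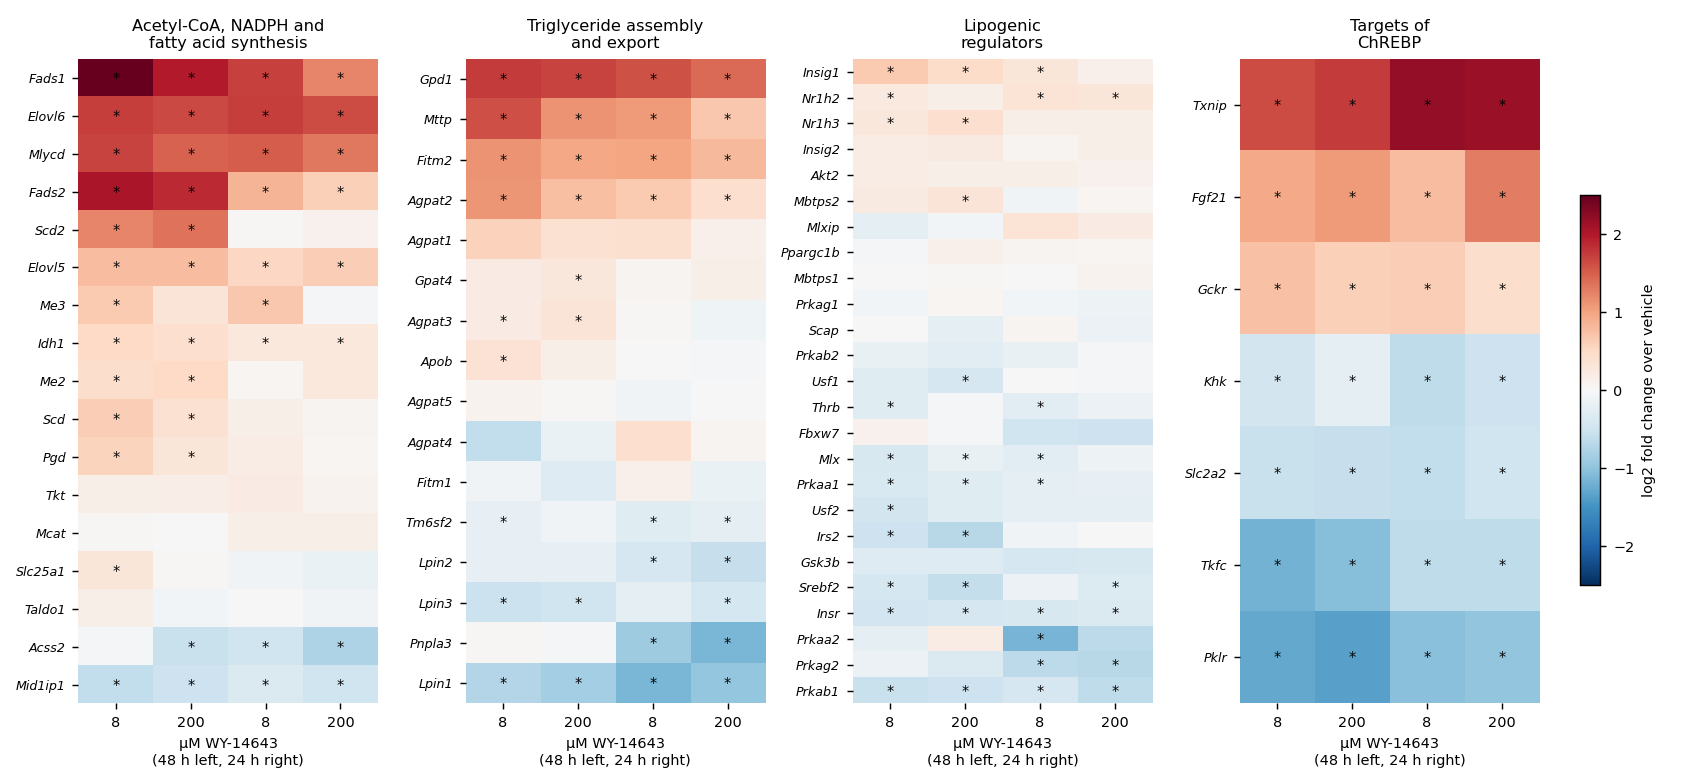
Log2 fold change over vehicle (colour scale) of the tested genes of 4 related lists, with 48 h left and 24 h right and 8 µM beside 200 µM. An asterisk marks a gene that passed the test. Fads1, Gpd1 and Txnip stand among the strongest rises, Lpin1 and Pklr among the strongest falls, and 10 of the 25 regulators have no asterisk.

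As a check of the treatment, all 9 measured PPARα response genes rose in all 4 comparisons, Cpt1a by 2.83 to 2.97 and Pdk4 by 3.47 to 3.66 on the log2 scale. Of all genes tested, 11.1% to 16.8% rose in a single comparison. The median signal was 385 to 439 on 29 arrays and 765 on the array of 48 h vehicle well 4, whose median correlation with its own group was 0.896, against 0.973 to 0.980 on the others. That array was the lowest of its group for the probe sets used for Acaca, Acly, Fasn, Me1, Thrsp, Dgat1 and Dgat2. It was the highest of its group for Mlxipl (1745) and for the dimmer probe sets of Acaca (700), Fasn (1153), Srebf1 (1586) and Dgat2 (5330). The low values of that well therefore do not hold for every probe set of a gene. Without it, 8 of the 10 genes passed at each dose against vehicle at 48 h, where 36% of all genes tested passed at 200 µM and 37% at 8 µM. At 24 h, 8 then passed at 200 µM, where 30.9% of all genes did, and 7 at 8 µM, where 30.7% did. All 6 measured hepatocyte markers were above the signal filter, with summed signals of 240000 to 374700. Summed Kupffer cell markers (5 of 6 measured above the filter) ran from 12160 to 13400 at 200 µM and 11390 to 13760 at 8 µM, against 12970 to 16680 in vehicle wells, at 48 h. At 24 h they ran from 17090 to 18580 at 200 µM and 16350 to 18840 at 8 µM, against 19630 to 21900 in vehicle wells. Cd14 made up most of these sums, with averages of 10510 at 200 µM and 9285 at 8 µM, against 12230 in vehicle wells, at 48 h. Clec4f then averaged 399.1 and 553.6, against 626.5, and Csf1r 426.7 and 521.2, against 585.4. Cd68 averaged 1074 at 200 µM but 1658 at 8 µM, against 1232 in vehicle wells, at 48 h. Cd163 then averaged 154.1 and 209.9, against 206.6. At 24 h Cd14 averaged 14770 at 200 µM and 14610 at 8 µM, against 16940 in vehicle wells. Cd68 then averaged 1370 and 1620, against 1876, and Cd163 210.1 and 292.6, against 354.2. Clec4f stood at 782.3 and 730.6, against 776.5, and Csf1r was higher, with 588.5 and 615, against 513.8. Summed stellate cell markers (4 of 6) ran from 2206 to 2488 at 200 µM and 2294 to 2784 at 8 µM, against 2946 to 5199 in vehicle wells, at 48 h. Their 24 h sums ran from 1817 to 2245 at 200 µM and 1963 to 2759 at 8 µM, against 2616 to 3217 in vehicle wells. Acta2 averaged 814.4 at 200 µM and 1128 at 8 µM, against 1586 in vehicle wells, at 48 h. Its 24 h averages were 540.4 and 890.9, against 1283. Col1a1 and Col1a2 were lower than in vehicle wells at both doses and times. Des was lower at 48 h, with 673.3 and 493.1, against 805, but at 24 h averaged 685.2 and 586.5, against 608.8. Summed endothelial markers (4 of 4) ran from 1019 to 1463 at 200 µM and 1236 to 1689 at 8 µM, against 1214 to 2840 in vehicle wells, at 48 h. At 24 h they ran from 1390 to 2131 at 200 µM and 1862 to 2462 at 8 µM, against 1764 to 2345 in vehicle wells. The endothelial markers did not move together. At 48 h Lyve1 averaged 285 at 200 µM and 444 at 8 µM, against 637 in vehicle wells. Pecam1 averaged 161.4 and 266.7, against 311.6, and Kdr 506.2 and 495.4, against 620.4. Stab2 was higher, with 308.4 at 200 µM and 276.2 at 8 µM, against 157.7 in vehicle wells. Stab2 was also higher at 24 h, with 343.5 at 200 µM and 335.8 at 8 µM, against 191 in vehicle wells. Summed cholangiocyte markers (2 of 3) ran from 9532 to 10520 at 200 µM and 10680 to 11920 at 8 µM, against 9302 to 13140 in vehicle wells, at 48 h. Their 24 h sums ran from 6657 to 7774 at 200 µM and 7577 to 8607 at 8 µM, against 7990 to 10030 in vehicle wells. Among them Epcam, which made up most of the sums, averaged 9874 at 200 µM and 11210 at 8 µM, against 11450 in vehicle wells, at 48 h. Krt19 averaged 102 at 200 µM and 57.8 at 8 µM, against 436 in vehicle wells, at 48 h. Its 24 h averages were 147 at 200 µM and 84.5 at 8 µM, against 262 in vehicle wells. Summed fat cell markers (2 of 4) ran from 848 to 1329 at 200 µM and 1661 to 2242 at 8 µM, against 725 to 2478 in vehicle wells, at 48 h. At 24 h they ran from 642 to 1118 at 200 µM and 1050 to 1494 at 8 µM, against 650 to 1178 in vehicle wells. Of the fat cell markers Cfd averaged 450 at 200 µM and 1490 at 8 µM, against 340 in vehicle wells, at 48 h. Its 24 h averages were 437 at 200 µM and 746 at 8 µM, against 414 in vehicle wells. Plin1, the other fat cell marker above the filter, was lower at 48 h, with 304.6 at 200 µM and 265 at 8 µM, against 588.2 in vehicle wells. The 24 h averages of Plin1 were 237.2 at 200 µM and 284.9 at 8 µM, against 285.4 in vehicle wells. Lep averaged 39.44 at 200 µM and 47.13 at 8 µM, against 143.2 in vehicle wells, at 48 h. The macrophage marker Adgre1, the stellate markers Lrat and Pdgfrb, the cholangiocyte marker Krt7 and the fat cell markers Adipoq and Lep were below the filter, and no marker was at 0. The ratio of 3′ to 5′ actin signal averaged 3.10 ± 0.20 at 200 µM and 3.26 ± 0.42 at 8 µM, against 2.61 ± 0.31 in vehicle wells, at 48 h. The 24 h ratios were 3.31 ± 0.17 at 200 µM and 3.10 ± 0.21 at 8 µM, against 2.86 ± 0.28 in vehicle wells (SD, n = 5). The part of these differences in the results was not tested.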

How the data were processed

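The authors deposited intensity values on a linear scale, 1 per probe set and array, made with MAS5 per the submitters' processing notes. Its version, scaling target and chip definition are not given in the sources used here. The trimmed mean of the values lay between 1500.45 and 1500.70 on all 30 arrays, so no scaling was added. Groups came from the labels' agent, concentration and time, and replicate numbers follow the array order, which pairs no wells.

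Probe sets were named by the platform annotation: 20826 had 1 symbol, 436 several and 9780 none, and 57 control probe sets were left out. The filter kept 21282 probe sets, those whose signal passed 281.361, the 40th percentile over the table, on 5 or more of the 30 arrays. A gene with several kept probe sets was represented by the brightest on average. A model of 6 group means was fitted to log2(signal + 16) over all 30 arrays (limma 3.58.1 in R 4.3.3, with eBayes and a variance trend). Tests were two-sided, adjusted by Benjamini-Hochberg over 11545 genes in each of 9 contrasts, at a threshold of 0.05. Other probe sets of the 10 genes were tested with the same model fitted to all 21282 kept probe sets. The code was tested on simulated data. The number of arrays limits the precision.

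The genes, the related lists and the tests were chosen with earlier results of these data known. All 10 genes are named. For likeness, the 3 other genes with the smallest root mean square difference were taken. Of the related lists, genes that passed in 1 direction in all 4 comparisons with vehicle, or stood among the 2 largest rises or falls at 200 µM and 48 h, could be named, and others only with their own values. Of the PPARα genes, Cpt1a, Pdk4 and Angptl4 could be named. Alternatives were pseudocounts of 1 and 64, no filter, a filter at the 60th percentile, quantile normalization, median centring, the mean over probe sets, a test of single probe sets, array weights, no variance trend, only the groups compared, a replicate block and leaving out each array in turn. Promoter windows came from RefSeq (GRCr8); genome positions of probe sets were not used here.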

Additional observations from a re-analysis of the deposited data

Results flagged for a closer look

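In 60 groups of 5 wells of the 10 genes, 4 held a well whose distance from its nearest neighbour was large for the range of the group, and chance gives about 1 such group in 20. In the 24 h 200 µM group, Acaca in well 5 was 4709, while the other 4 wells lay between 3299 and 3699. In the same group Gpam in well 5 was 2002, while the others lay between 2379 and 2469, and Dgat2 in well 4 was 12998, while the others lay between 14088 and 14486. In the 48 h 8 µM group, Gpam in well 2 was 2961, while the others lay between 3494 and 3669.

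The effect of the drug differed between the times for 5 genes, by limma's test of the difference (48 h effect minus 24 h effect, log2 scale). At 8 µM it was higher at 48 h by 0.70 for Me1 (adjusted p = 0.0082), 0.48 for Gpam (adjusted p = 0.043), 0.47 for Acly (adjusted p = 0.029), 0.46 for Thrsp (adjusted p = 0.011) and 0.26 for Dgat2 (adjusted p = 0.034). At 200 µM it was higher at 48 h by 0.72 for Thrsp (adjusted p = 6e-05), 0.52 for Gpam (adjusted p = 0.026) and 0.29 for Dgat2 (adjusted p = 0.022). Of all genes tested, 2.9% differed between the times at 8 µM and 2.41% at 200 µM. The other probe set of Dgat2 passed at neither dose, and that of Gpam did not pass at 200 µM. With each array centred on its median, only the Thrsp call at 200 µM was kept. The calls of Acly, Dgat2 and Gpam were each lost on leaving out some single arrays.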

How the results depend on the processing

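All 29 calls of the 10 genes against vehicle kept their direction and stayed past the threshold under 12 other settings and on leaving out each of 30 arrays, and no call of any comparison changed sign. The comparisons of doses and of times were less stable. With arrays centred on their median, the number of genes that differed between 200 µM and 8 µM was 0 at 48 h, against 5, and 1 at 24 h, against 3. In that setting the vehicle comparison of 48 h with 24 h gave 1 gene, against 3, the time difference at 8 µM 0, against 5, and that at 200 µM 1, against 3. Median centring also shifted the median of all genes by 0.144 at 8 µM and 0.125 at 200 µM at 48 h, by -0.111 in vehicle wells at 48 h against 24 h, and by 0.109 in the 8 µM time difference. Fitting only the groups compared gave 1 gene for the doses at 48 h, 0 for vehicle over time, and 2 at 8 µM and 1 at 200 µM for the time difference. Testing single probe sets gave 3 genes for the doses at 48 h, and no variance trend gave 3 for the 8 µM time difference. The cause was not tested. Leaving out 1 array gave 1 to 5 genes for the doses at 48 h and 2 to 4 at 24 h, 1 to 3 for vehicle over time, and 2 to 6 at 8 µM and 1 to 5 at 200 µM for the time difference. Without 48 h vehicle well 4, 8.98% of all genes tested differed between the doses at 48 h and 5.86% at 24 h. For the other settings and arrays the share of all genes was not set beside these counts. Whether calls were lost more among the 10 genes than among all genes therefore cannot be told from them. With the replicate block, runs of 6 array numbers that hold each group once, all 9 counts were as reported, 5 and 3 for the doses among them. The labels do not pair wells across groups.

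Signals of a probe set order groups but give no transcript number, and 1 signal cannot separate transcripts of a gene. Calls near the threshold moved with single arrays, and protein, enzyme activity and lipid were not measured.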
